A study of Mus musculus with 47 samples.

Results

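Tumors grown from one melanoma line in mice of one strain differed in how much leukocyte RNA they held, and within each group of tumors the ones with most and least of it were compared here. The 18 tumors, of 47 samples in the series, were 4 control tumors and 7 tumors each of m.12,436 40% and m.12,436 60% cells. They were chosen by their level of *Ptprc*, which encodes the leukocyte surface phosphatase CD45: the top 2 control tumors and the top 3 of each 7 are called leukocyte-rich, the bottom 2, 3 and 3 leukocyte-poor, and the middle tumor of each 7 was left out. That gave 8 rich and 8 poor tumors, with the same share of each group on both sides.

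All tumors came from B78-D14 cells, a mouse melanoma line derived from B16, injected under the skin of male C57BL/6 mice, whose age is given as about 8 weeks in one place and as 10 to 16 weeks in another. No treatment is given for them. The m.12,436 cells carry a base-edited stop codon in *mt-Nd5*, the mitochondrial gene of a complex I subunit, in 40% or 60% of their mtDNA copies, and control cells do not. Each library is 1 piece of 1 tumor, so it holds RNA of malignant cells and of every other cell type in the piece, and lines with a given mutation load stand for their genotype as single edited populations. In such bulk samples fewer cells of a type and less RNA per cell cannot be told apart. The libraries held 16475735 to 31218475 counts, and rich and poor tumors did not differ past the threshold in total counts (24672200 ± 4430210 against 25069300 ± 4273860, SD, n = 8 each, exact two-sided permutation within groups, adjusted p = 0.865) or in genes with at least 1 count (23758 ± 731 against 23671 ± 867, exact permutation, adjusted p = 0.865).

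CD45 is carried by nearly all nucleated blood cells and sets the threshold of antigen receptor signaling. A subcutaneous melanoma takes up monocytes that become macrophages, dendritic cells that carry antigen on MHC class II, T cells that read it, and natural killer (NK) cells. Activated T and NK cells release interferon-γ, and cells that sense it make more antigen-presenting molecules, guanylate-binding proteins and the chemokine CXCL9, which draws further T cells. The same tissue also holds vessels, fibroblasts and, at its edge, muscle and fat.

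*Ptprc* (chromosome 1 of GRCm39, 137990599 to 138103446, − strand) lay between 49.7 and 152.9 CPM (the count scaled by the library's total) in the tumors, on 1334 to 4410 counts, and had 0 counts in each of 4 cultures of control cells, which allows up to 3 counts. In control tumors the rich ones were at 99.6 and 75.5 CPM and the poor ones at 69.2 and 49.7. In 40% tumors the rich ones were at 105.7, 86.30 and 86.28 CPM, the middle tumor at 77.5 and the poor ones at 77.2, 72.3 and 54.6. Rich 60% tumors were at 152.9, 133.0 and 127.0 CPM, the middle tumor at 108.7 and the poor ones at 94.9, 83.5 and 79.5. The line between the sides was therefore narrow in control tumors (75.5 against 69.2) and in 40% tumors (77.2 for the best of the poor, 77.5 for the middle one and 86.28 for the last of the rich), and the poor 60% tumor 3, at 94.9, held more *Ptprc* than rich control tumor 4 and rich 40% tumors 5 and 7. These values chose the tumors and carry no test. Scaling *Ptprc* by TMM factors, which lay between 0.971 and 1.03, moved no tumor to another side.

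**Figure D1:**
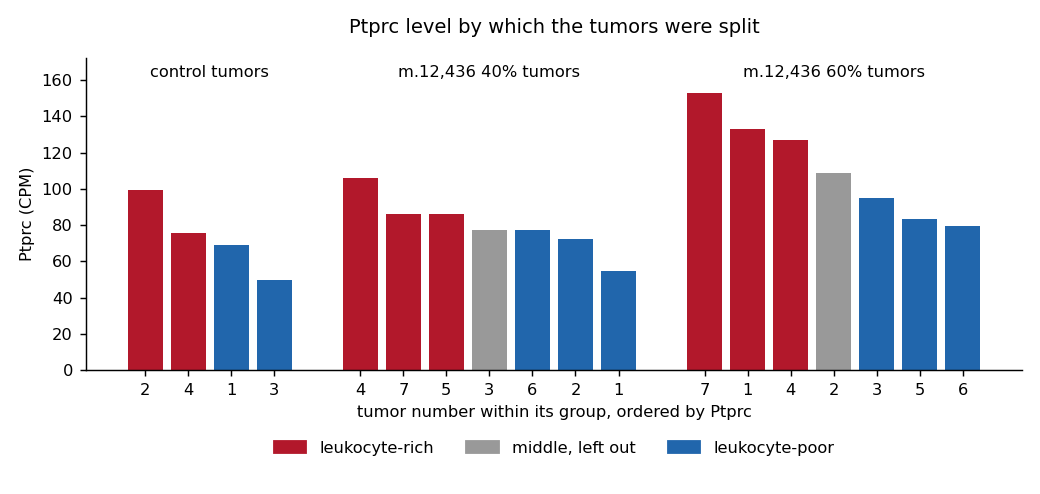
Ptprc in CPM (vertical axis) for each of the 18 tumors, ordered by level within control, m.12,436 40% and m.12,436 60% tumors, with rich tumors in red, poor ones in blue and middle ones in grey. The lowest rich control tumor, at 75.5 CPM, sits below every poor 60% tumor, the lowest of which is at 79.5.

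The label was checked on 15 other genes that most leukocytes express. All 15 were higher in rich tumors, by 0.16 to 0.58 on the log2 scale, and within each group every rich tumor had a higher sum of these genes than every poor one. That sum ran from 1048 to 1758 CPM with a median of 1270 in rich tumors, from 920 to 1229 with a median of 1053 in poor ones, and reached at most 72.6 in cultured cells, where *Arhgdib* made up most of it. The genes come from the cells that carry *Ptprc*, so their direction was set by the choice of tumors. Both sides thus differed in leukocyte RNA as named, by a modest amount.

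Across the 16154 genes tested besides *Ptprc*, rich and poor tumors were tested by edgeR's quasi-likelihood method with group as a covariate, and a gene is said to have risen or fallen at a Benjamini-Hochberg adjusted p under 0.1. By that rule 484 genes (3.00%) rose and 80 (0.495%) fell in rich tumors, and at an unadjusted p under 0.05 there were 1331 (8.24%) higher and 706 (4.37%) lower. Most changes were small: the median log2 fold change was 0.57 among genes that rose and −0.42 among those that fell, and 105 and 3 of them passed 2-fold. Of the 484, 480 had the same sign in all 3 groups, as did all 80 that fell. These genes were called by a fit over the same 3 groups, so this agreement follows largely from the selection. In 133 genes (0.823%) every rich tumor lay above every poor tumor of its own group in all 3 groups, and in 14 genes (0.0867%) every one lay below. The median log2 fold change of all genes tested was 0.0021.

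The number of calls rested on single tumors. Leaving out control tumor 2, the rich control with the most *Ptprc*, left 213 genes higher and 29 lower, and all 213 and 27 of the 29 were among the calls above. Without 60% tumors 7, 1 and 6 the counts were 234 and 32, 245 and 31, and 285 and 50, without control tumor 3 they were 280 and 35, and without 40% tumors 4 and 1 they were 290 and 39, and 297 and 43. In the other direction, leaving out control tumor 4 gave 651 and 141, and leaving out 40% tumor 6 gave 594 and 147. Without the group covariate, 56 genes rose and 8 fell. The smallest adjusted p values belonged to *Myo1g* and *Myo1f*, myosins of blood cells, *Rassf4*, and *Sema4a*, a semaphorin of dendritic and T cells, which are named after their values were seen. *Myo1g* was at 45.5 ± 11.1 CPM (SD, n = 8) in rich and 29.5 ± 6.05 CPM (SD, n = 8) in poor tumors, which is 0.59 on the log2 scale (SE, the standard error of the fitted change, 0.06). Genes of blood cells follow the *Ptprc* ranking that chose the tumors, so these small p values test what the choice set.

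The T cell list moved further than any other list of leukocyte genes, by its median of 1.28 on the log2 scale over 19 genes, against 0.0021 for all genes. Of these, 18 passed the threshold upward, against 3.00% of all genes, and all 19 were higher in each of the 3 groups. They include the receptor chains *Trac* and *Cd3e*, the co-receptors *Cd8a* and *Cd8b1*, the kinase *Lck* and *Foxp3*, the transcription factor of regulatory T cells. As leukocyte genes they were bound to lean upward, and no p is read from them.

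*Cd3e* (chromosome 9, 44910037 to 44920925, − strand), a chain of the T cell receptor complex, was at 5.33 and 2.15 CPM in rich control tumors against 2.19 and 1.12 in poor ones. Among 40% tumors it was at 4.49, 3.68 and 2.31 CPM against 2.20, 1.09 and 0.981, and among 60% tumors at 7.94, 6.97 and 6.89 CPM against 3.62, 1.78 and 1.61. The rich tumors were higher without overlap at 40% and 60%, whereas in control tumors the rich tumor 4 lay just under the poor tumor 1. These levels rest on 23 to 229 counts, none was found in cultured cells, and the log2 fold change was 1.37 (SE 0.24).

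*Trac*, the constant region of the receptor's α chain, did not overlap within any group, with 1.88 to 7.63 CPM in rich and 0.801 to 3.01 CPM in poor tumors and a log2 fold change of 1.46 (SE 0.25). *Foxp3* ran from 1.24 to 5.62 CPM in rich tumors, with a median of 4.39, and from 0.705 to 2.52 in poor ones, with a median of 1.45. *Cd8a*, the co-receptor of cytotoxic T cells, ran from 2.15 to 12.4 CPM against 0.736 to 6.91, without overlap within groups and with a log2 fold change of 1.11 (SE 0.29). *Cd4*, the co-receptor of helper T cells, was the member that did not pass: it ran from 1.33 to 8.93 CPM in rich tumors and from 0.311 to 4.19 in poor ones, with a log2 fold change of 1.25 and a standard error of 0.44. Rich control tumor 4 held the lowest *Cd4* of the rich side. Summed over the list, the T cell genes came to 29.9 CPM in that tumor, below the 37.6 of poor control tumor 1, while control tumor 2 held 83.1.

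NK cell and cytotoxic genes had a median log2 fold change of 0.90, with 9 of 13 past the threshold upward, against 3.00% of all genes. *Ccl5*, a chemokine of cytotoxic cells, was at 6.32 CPM in rich and 2.48 in poor tumors on average. *Ifng* itself was scarce, at 0.275 to 1.11 CPM in rich and 0.0320 to 0.447 CPM in poor tumors on 1 to 32 counts, with a log2 fold change of 1.69 (SE 0.35) and no overlap within groups. *Gzmb*, the cytotoxic protease granzyme B, and *Prf1*, which encodes perforin, were among the 4 that did not pass, with log2 fold changes of 0.80 (SE 0.26) and 0.72 (SE 0.27).

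Macrophage and monocyte genes, by far the most abundant leukocyte RNA here, differed less, with a median of 0.25 and 8 of 24 past the threshold, against 3.00% of all genes. The list summed to 2966 to 4349 CPM in rich and 2551 to 3450 CPM in poor tumors, and the ranges overlap. *Ctss*, a lysosomal protease that trims the MHC class II chaperone, ran from 250 to 497 CPM against 164 to 324, with a log2 fold change of 0.59 (SE 0.09). *C1qa*, a complement subunit made by tissue macrophages, ran from 289 to 479 CPM against 252 to 367 and did not pass, with a log2 fold change of 0.29 (SE 0.09), while *C1qb* and *C1qc* did, with 0.26 and 0.28. *Csf1r*, the receptor for the growth factor that macrophages need, and *Trem2* each had a log2 fold change of 0.28. *Lyz2*, the lysozyme of myeloid cells, was at 748 to 1139 CPM against 486 to 1214, with 0.27 (SE 0.11). The scavenger receptors *Cd163* and *Mrc1* had values of −0.70 (SE 0.46) and −0.22 (SE 0.30). The count of 8 fell to 2 without control tumor 2, to 3 without 60% tumor 1, 60% tumor 7 or 40% tumor 7, to 4 without 60% tumors 3 or 6 or 40% tumors 1 or 4, and to 5 without control tumor 3, 60% tumors 4 or 5 or 40% tumor 6. It was 10 by DESeq2, 15 with log2 *Ptprc* over all 18 tumors and 0 without the group covariate.

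Dendritic cell genes were uneven. *Ccl22* and *Ccl17*, chemokines of mature dendritic cells, *Ccr7*, the receptor that takes them to lymph nodes, *Xcr1*, a receptor of cross-presenting cells, *Naaa* and *Irf8* passed, with log2 fold changes of 1.16, 1.66, 0.92, 1.17, 0.63 and 0.40. *Flt3*, *Clec9a*, *Zbtb46* and *Itgax* had 0.19, 0.15, 0.12 and 0.30, and with *Batf3*, *Cd209a* and *Siglech* they make up the 7 of 13 that did not pass. The median of the list was 0.63, and its 6 calls stand against 3.00% of all genes.

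Neutrophil genes showed no such lean. The median over the 8 members with enough counts was −0.14, 5 were lower and 3 higher, and 0 passed the threshold by edgeR, limma-voom or DESeq2, with 0 at an unadjusted p under 0.05. *S100a9*, a calcium-binding protein abundant in neutrophils, ran from 1.94 to 7.67 CPM with a median of 3.13 in rich tumors and from 1.80 to 8.63 with a median of 3.20 in poor ones. It had a log2 fold change of −0.34 (SE 0.38), and rich and poor tumors overlapped in all 3 groups. *Csf3r*, the receptor for the neutrophil growth factor, had 0.23 (SE 0.25). The tumor with the most *S100a9*, at 11.5 CPM, was the middle 40% tumor, which takes no part in the comparison. The median of this list changed sign, to 0.24, in a fit blocked on replicate number.

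B cell and plasma cell genes were at the edge of detection: 5 of 13 had enough counts. *Cd79b*, a chain of the B cell receptor, was the 1 that passed, against 3.00% of all genes, a count too small to read for the list. It did not pass when any 1 of 12 tumors was left out. *Igkc*, the immunoglobulin κ constant region, lay between 0.189 and 3.40 CPM over the tumors, with log2 fold changes of −1.49 in control and 2.19 in 60% tumors, and reads of immunoglobulin genes may be shared between copies. The 5 mast cell genes tested, such as *Mcpt4* (0.49, standard error 0.55), had a median of 0.42 and 0 calls by all 3 tools.

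**Figure D2:**
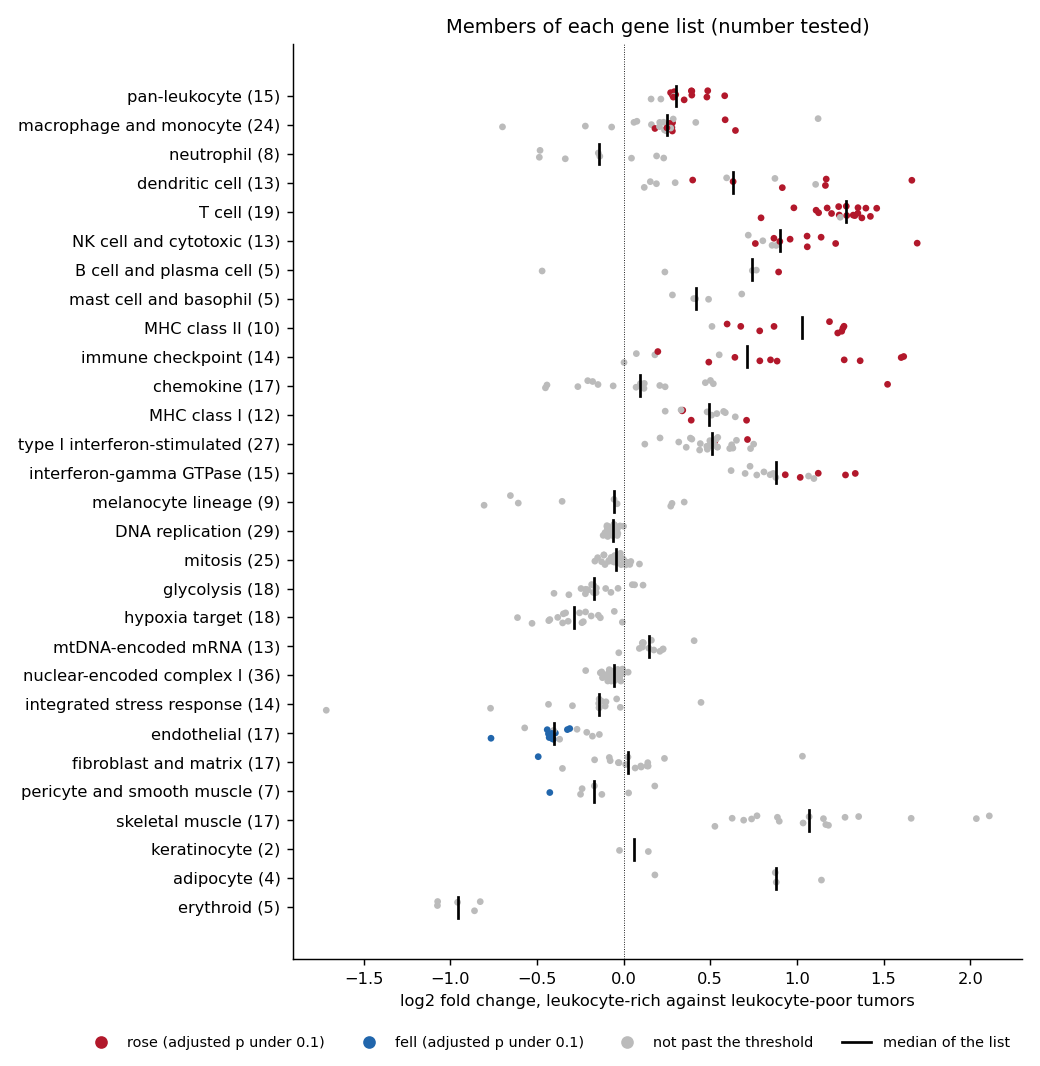
Each point is 1 gene of the list named on the left, with the number of members tested in brackets, and the horizontal axis gives its log2 fold change between rich and poor tumors. Red points rose, blue points fell, grey points did not pass an adjusted p of 0.1, and black bars are list medians. T cell genes gather around 1.28, macrophage and monocyte genes around 0.25, and endothelial genes lie left of 0, around −0.40.

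MHC class II genes, which display antigen to helper T cells, rose in rich tumors. Of the list 9 of 10 were past the threshold, against 3.00% of all genes, and the median log2 fold change was 1.03. The exception, *H2-Oa*, had 0.51. The transactivator *Ciita* and the chaperone *Cd74* were among those that rose. All 10 were higher in rich tumors, 9 of them in each group. Leukocytes are a main source of class II RNA, so the choice of tumors bears on this direction too, and the p values beside these genes are no independent support for it.

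*Cd74*, the invariant chain, was at 694 and 272 CPM in rich control tumors and at 488 and 149 in poor ones. At 40% the values were 607, 494 and 437 CPM against 309, 176 and 129, and at 60% they were 1150, 1133 and 1073 CPM against 652, 274 and 268. The sides did not overlap at 40% and 60%. In control tumors rich tumor 4 was below poor tumor 1, as it was for *Cd3e*. The log2 fold change was 1.19 (SE 0.31, edgeR adjusted p = 0.0706). *H2-Ab1*, the β chain of the I-A molecule, ran from 127 to 610 CPM in rich and from 68.3 to 309 CPM in poor tumors, with 1.24 (SE 0.29, adjusted p = 0.0526). Cultured cells held at most 0.968 CPM of *Cd74* and 0.108 CPM of *H2-Ab1*. The middle 40% tumor had 718 CPM of *Cd74*, above every other 40% tumor, and the largest sum of the list among them, at 1662 CPM, with *Ptprc* at only 77.5 CPM. Of the 10 genes, 3 passed the threshold without control tumor 2 or any of 60% tumors 1, 5, 6 and 7, and 4 without control tumor 3 or 40% tumors 1 or 4. Without the group covariate 0 passed.

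Class II promoters share a Y box, whose core is ATTGG, and promoters of interferon-γ genes share TTTC, any 2 bases and TTTC, the core of the interferon-stimulated response element (ISRE), and TTCNNNGAA, of the gamma-activated site. The 250 bases before each gene's start in the RefSeq promoter table were searched for the 3 motifs on both strands. The lists follow gene families, so the shares do not depend on rich and poor tumors. Whether the motifs had a part in the differences was not tested. The core ATTGG was in all 7 class II genes that the table holds and in 37.5% of its 27025 genes. The ISRE core was in 9 of 10 guanylate-binding and related GTPase genes, against 3.46% of all, and TTCNNNGAA in 6 of these 10, against 8.13%. Many of the GTPase genes are close relatives, so their promoters are not independent, and matches of these motifs may overlap. Other lists held them too: ATTGG was in 7 of 10 class I genes and 7 of 17 type I interferon-stimulated genes, and the ISRE core in 2 and 8 of these. Among the 9 endothelial and the 9 T cell genes in the table, the ISRE core was in 0 and ATTGG in 3 and 2. The class II and the GTPase promoters with the highest levels of their genes, among those that could be printed, are shown with motif matches in capitals, ATTGG for the first pair and the ISRE core for the second, 5′ to 3′ on the gene's strand in GRCm38.p6.
H2-Eb1, chr17:34305617-34305866, + strand: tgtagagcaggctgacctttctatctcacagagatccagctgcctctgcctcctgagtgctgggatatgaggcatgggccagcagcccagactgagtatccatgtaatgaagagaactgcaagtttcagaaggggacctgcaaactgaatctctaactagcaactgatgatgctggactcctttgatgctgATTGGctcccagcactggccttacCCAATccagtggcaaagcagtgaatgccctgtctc
H2-Aa, chr17:34287824-34288073, − strand: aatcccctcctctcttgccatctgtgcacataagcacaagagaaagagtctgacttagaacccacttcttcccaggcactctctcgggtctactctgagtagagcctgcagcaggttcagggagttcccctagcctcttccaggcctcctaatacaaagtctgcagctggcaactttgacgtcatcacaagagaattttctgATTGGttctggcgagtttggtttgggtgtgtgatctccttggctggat
Gbp2, chr3:142620413-142620662, + strand: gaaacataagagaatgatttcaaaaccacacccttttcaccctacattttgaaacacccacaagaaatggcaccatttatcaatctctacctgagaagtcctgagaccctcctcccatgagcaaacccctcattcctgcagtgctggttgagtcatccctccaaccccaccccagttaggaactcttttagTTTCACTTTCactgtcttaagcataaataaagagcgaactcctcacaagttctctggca
Irgm1, chr11:48871421-48871670, − strand: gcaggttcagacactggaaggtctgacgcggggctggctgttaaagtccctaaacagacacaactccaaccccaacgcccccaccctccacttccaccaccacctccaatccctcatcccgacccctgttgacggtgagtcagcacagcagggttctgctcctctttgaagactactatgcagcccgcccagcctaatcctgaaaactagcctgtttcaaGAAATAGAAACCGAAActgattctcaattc
Counted back from the base before the start, the matches begin at −59 and −35 in *H2-Eb1*, at −48 in *H2-Aa*, at −59 in *Gbp2* and at −30 and −24 in *Irgm1*, where the 2 matches overlap. TTCNNNGAA was not in the windows of *Gbp2* and *Irgm1*. A match is a description of the sequence and not a bound site.

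The genes of these promoters moved as follows. RNA of leukocytes, and of cells that sense their interferon-γ, may follow the *Ptprc* ranking. The choice of tumors therefore bears on the direction of the GTPases, and their p values are no independent support for it. The same holds for *Cxcl9*, the type I interferon-stimulated genes and MHC class I below. *H2-Eb1* had a log2 fold change of 1.27 (SE 0.31, edgeR adjusted p = 0.0597) and *H2-Aa* was among the 9 that rose. *Gbp2*, a guanylate-binding protein that attacks vacuoles of intracellular microbes, ran from 54.1 to 206 CPM in rich tumors and from 23.6 to 108 CPM in poor ones, with 1.02 (SE 0.22, adjusted p = 0.0343). At 60% its rich tumors held 206, 193 and 180 CPM, all above the 108, 70.4 and 60.1 of the poor ones. *Irgm1*, an immunity-related GTPase, had 0.62 (SE 0.26, adjusted p = 0.323), with 1.11 within 60% tumors and 0.08 within 40% tumors. Of the 15 GTPases listed, *Gbp2*, *Gbp4*, *Gbp5*, *Gbp6* and *Tgtp1* passed, against 3.00% of all genes, all 15 were higher in each group, and the median was 0.88. That count of 5 was 10 to 11 without control tumor 1, 40% tumor 5 or 40% tumor 6, it was 3 without 40% tumor 7 and 2 without control tumors 2 or 3, 40% tumors 1 or 4, or any of 60% tumors 1, 4, 5, 6 and 7, and it was 14 by limma-voom and 13 by DESeq2.

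*Cxcl9* (chromosome 5, 92469206 to 92475945, − strand) had the largest rise among genes averaging a log2 CPM of 1 or more with 1 sign in all groups. It was at 14.9 and 11.4 CPM in rich and 14.1 and 2.37 CPM in poor control tumors, at 23.2, 15.9 and 10.4 against 10.7, 3.82 and 3.68 CPM at 40%, and at 54.8, 54.2 and 41.9 against 14.8, 9.81 and 8.99 CPM at 60%. The sides were thus apart at 60% only, and the log2 fold change was 1.52 (SE 0.36, edgeR adjusted p = 0.0515). Leaving out any 1 of 7 tumors (control tumor 2, 60% tumors 1, 5, 6 or 7, 40% tumors 1 or 4) took its call away, at adjusted p of 0.104 to 0.118. *Cxcl10*, a related chemokine, had 0.50 (SE 0.38, adjusted p = 0.635). Of 17 genes tested on the chemokine list, *Cxcl9* was the 1 that passed, against 3.00% of all genes, a count too small to read as a result about the list. The chemokines *Ccl22* and *Ccl17*, on the dendritic cell list, and *Ccl5*, on the NK cell list, rose as well. The monocyte attractant *Ccl2* had −0.15 (SE 0.15, adjusted p = 0.734).

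All 27 type I interferon-stimulated genes were higher in rich tumors, by 0.12 to 0.75, and 2 of them passed, against 3.00% of all genes, among them *Stat2*, a transcription factor of the interferon response (0.53, standard error 0.15, edgeR adjusted p = 0.0975). *Zbp1*, a sensor of Z-form nucleic acid, had 0.48 (SE 0.23, adjusted p = 0.404). The list's median was 0.51, made up of 0.68 in control, 0.04 in 40% and 0.91 in 60% tumors. The count was 0 without control tumors 2 or 3, 60% tumors 1, 5, 6 or 7 or 40% tumors 1 or 4. It was 1 without control tumor 1, 60% tumors 3 or 4 or 40% tumor 7, and 5 and 4 without 40% tumors 2 and 5. By limma-voom 3 of the 27 passed, by DESeq2 5, and with log2 *Ptprc* over all 18 tumors 26. Over the 40% and 60% tumors alone 0 passed, as without the group covariate and with replicate number as a block.

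MHC class I, made by nearly all cells, had a median of 0.49 with 4 of 12 genes past the threshold, against 3.00% of all genes. They were the peptide trimmer *Erap1*, the loading factor *Tapbp*, the transporter *Tap2* and *H2-T23*. The heavy chain *H2-K1* was at 523 to 977 CPM in rich and 330 to 730 CPM in poor tumors, with 0.51 (SE 0.15, adjusted p = 0.114), and cultured cells held 5.03 to 32.3 CPM of it. *B2m*, the light chain, had 0.24 (SE 0.13, adjusted p = 0.484). Without control tumor 2 the count was 2, and it was 7 to 10 without control tumors 1 or 4 or 40% tumors 5 or 6. By DESeq2 11 of the 12 passed, and by limma-voom 10.

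Checkpoint receptors and ligands rose in 10 of 14 cases, against 3.00% of all genes, with a median of 0.71. *Pdcd1*, which encodes the inhibitory receptor PD-1, ran from 1.55 to 5.75 CPM in rich and from 0.450 to 4.15 CPM in poor tumors, with a log2 fold change of 1.27 (SE 0.27) on 11 to 166 counts. It is a T cell gene, and like other members that leukocytes make its direction was set by the choice of tumors, so no p is read from it. Its ligand *Cd274* had 0.55 (SE 0.17, adjusted p = 0.121) and the other ligand, *Pdcd1lg2*, 1.62 (SE 0.37). *Vsir*, an inhibitory ligand of myeloid cells, had 0.20 (SE 0.05) and no overlap within groups. *Tnfrsf9*, an activation receptor, had 0.00 (SE 0.13). The count was 3 without control tumor 2, 4 without 60% tumor 7, 5 without 60% tumor 1 or 40% tumor 4 and 6 without control tumor 3, 60% tumors 5 or 6 or 40% tumor 1.

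**Figure D3:**
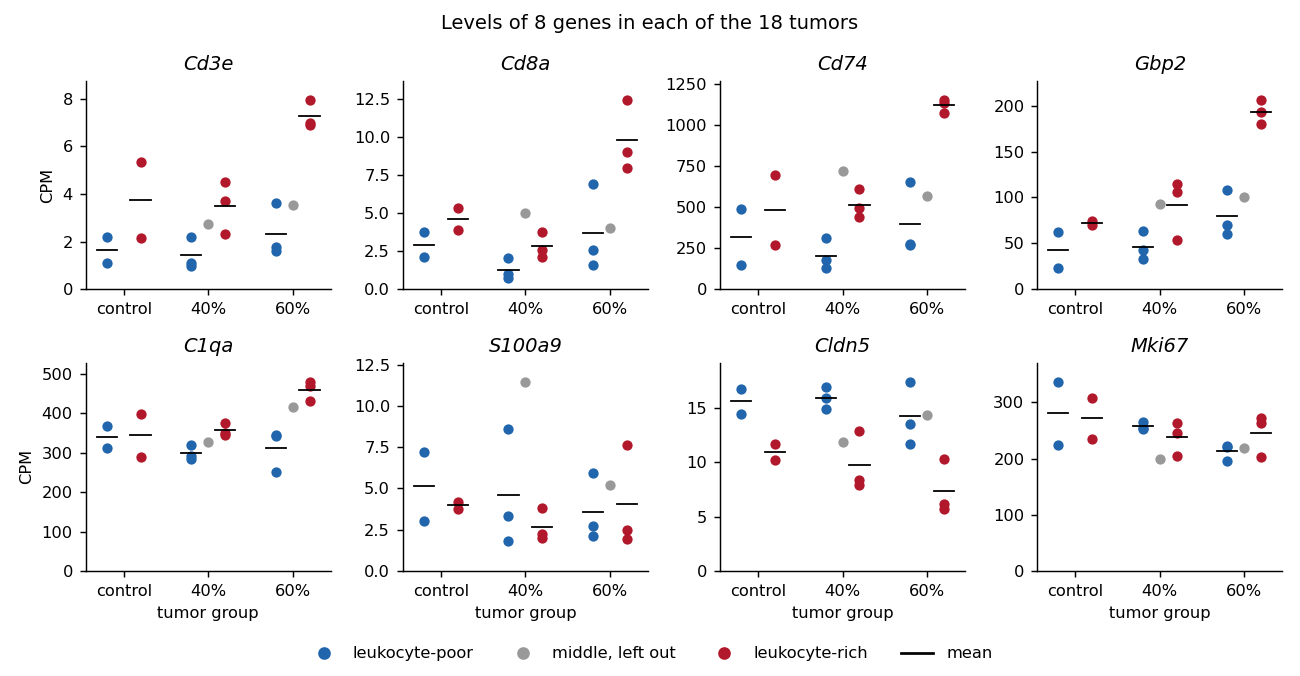
Level in CPM (vertical axes, from 0) of 8 genes in each of the 18 tumors by group, with poor tumors in blue, middle ones in grey, rich ones in red and black bars at the means of rich and poor tumors. Cldn5 is lower in every rich tumor than in every poor tumor of its group, Cd3e, Cd8a and Cd74 are highest in rich 60% tumors, and S100a9 and Mki67 overlap in each group.

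Genes of vessel endothelium fell in rich tumors. Of 17 listed, 10 passed the threshold downward, against 0.495% of all genes, all 17 had negative log2 fold changes, from −0.77 to −0.14, and the median was −0.40. The median was similar within the groups, at −0.37 in control, −0.34 in 40% and −0.44 in 60% tumors. In each group every rich tumor had a lower sum of the list than every poor tumor: the sum ran from 403 to 532 CPM over rich and from 513 to 659 CPM over poor tumors. The middle 40% tumor, at 418 CPM, was lower than all of its group, and the middle 60% tumor was at 566.

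*Cldn5* (chromosome 16, 18595597 to 18597012, + strand), a tight-junction protein of endothelium, was at 11.7 and 10.3 CPM in rich and 16.8 and 14.4 CPM in poor control tumors. In 40% tumors it was at 12.9, 8.38 and 7.97 CPM in the rich and 17.0, 15.9 and 14.95 in the poor, and in 60% tumors at 10.3, 6.15 and 5.75 CPM against 17.4, 13.6 and 11.7. Rich tumors were lower throughout, and over all groups a single poor tumor, 60% tumor 6, came within the range of the rich. The log2 fold change was −0.77 (SE 0.13, edgeR adjusted p = 0.00778). *Pecam1* (chromosome 11, 106543689 to 106641454, − strand), the adhesion molecule CD31, ran from 43.4 to 60.6 CPM in rich and from 58.9 to 77.4 CPM in poor tumors, without overlap within groups, with −0.39 (SE 0.07, adjusted p = 0.00660). *Cdh5*, the cadherin of endothelial junctions, ran from 48.2 to 82.3 CPM against 73.5 to 104, with −0.43 (SE 0.09, adjusted p = 0.0183). *Cldn5*, *Pecam1* and *Cdh5* were past the threshold without each of the 16 tumors in turn, and the count over the list was then 7 to 11. Other settings moved that count further. It was 5 over the 40% and 60% tumors alone, 2 without the group covariate and 0 in a fit blocked on replicate number. It was 11 by limma-voom, 13 by DESeq2 and 11 with log2 *Ptprc* over all 18 tumors. *Eng*, which cultured cells also expressed at 90.2 CPM, had −0.14 (SE 0.05, adjusted p = 0.161).

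*Dll4*, a Notch ligand of growing vessel tips, was at 11.6 CPM in rich and 16.2 in poor tumors (−0.52, standard error 0.12, adjusted p = 0.0325). Pericytes, which wrap the vessels, were represented by 7 genes, of which the channel *Kcnj8* fell and *Rgs5* (−0.17, standard error 0.12) and *Notch3* (−0.24, standard error 0.11) did not pass. *Kcnj8* lost its call when any 1 of 11 tumors was left out. Among 17 fibroblast and matrix genes *Pdgfrb*, a growth factor receptor of mural cells and fibroblasts, fell (−0.49, standard error 0.09, adjusted p = 0.00736), and the median was 0.02, with *Col3a1* at 0.07 (SE 0.12) and *Dcn* at 0.02 (SE 0.19). The single calls of the pericyte and the fibroblast list stand against 0.495% of all genes lower and are too few to read for a list.

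Of the red cell genes 0 of 5 passed by edgeR, limma-voom or DESeq2, and 1 had an unadjusted p under 0.05. All 5 hemoglobin and erythroid genes were lower in rich tumors, with a median of −0.96, which was 0.33 in control tumors, and the sum of the list overlapped widely, from 14.8 to 146 CPM in rich and from 15.8 to 113 CPM in poor tumors. *Hbb-bs* had −1.07 (SE 0.49, edgeR adjusted p = 0.383), with 0.34 in control and −2.09 in 40% tumors. Without control tumor 4, whose sum was the highest of all, 4 of the 5 passed. The part of blood content in the endothelial result was not tested.

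Skeletal muscle RNA varied far more between tumors than the split did. Its 17 genes summed to 8.28 to 465 CPM in rich and 8.98 to 255 CPM in poor tumors, with a median log2 fold change of 1.07 and 0 calls by all 3 tools, and log2 of the sum was 7.04 ± 2.30 in rich and 5.96 ± 2.15 in poor tumors (SD, n = 8 each, exact two-sided permutation within groups, adjusted p = 0.542). *Acta1*, the actin of skeletal muscle, had 1.18 with a standard error of 1.16. With the muscle sum as a further covariate, 288 genes rose and 39 fell, among them 16 T cell, 8 class II and 8 endothelial genes, but only 3 macrophage and monocyte, 5 checkpoint, 2 GTPase and 1 interferon-stimulated gene of those lists. Of 4 fat cell genes tested, such as *Plin1* (1.14, standard error 0.72), and 2 keratinocyte genes, 0 passed by any of the 3 tools.

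Genes on the melanocyte, DNA replication and mitosis lists differed little. The melanocyte list had a median of −0.06, with 9 of 19 members expressed enough to test and 0 calls by edgeR and limma-voom. Of those 9, 5 averaged under 1 CPM in cultured control cells, among them *Kit* and *Ednrb* at 0. The median of this list therefore does not stand for malignant cells alone. *Mitf*, the lineage's transcription factor, was at 24.6 CPM in rich and 20.3 in poor tumors (0.27, standard error 0.09, adjusted p = 0.183). *Pmel*, a pigment-granule protein, had −0.81 (SE 0.48), *Sox10* and *Dct* did not pass the filter on low counts, and DESeq2 called 1 member each way. The 29 DNA replication genes had a median of −0.06 and the 25 mitosis genes one of −0.05, with 0 calls by the 3 tools and 0 at an unadjusted p under 0.05. *Mki67*, the proliferation antigen, was at 249.4 CPM in rich and 246.5 in poor tumors (0.00, standard error 0.10). Both medians were negative in control and 40% tumors and positive in 60% tumors.

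Glycolysis and hypoxia genes had mostly negative values and none passed by edgeR, limma-voom or DESeq2. Of 18 glycolysis genes 15 were lower in rich tumors, and 9 had an unadjusted p under 0.05, all of them lower, against 4.37% of all genes. That 9 rested on single tumors: it was 2 without control tumors 2 or 3 or 40% tumor 2, 4 without 60% tumors 3 or 7, and 5 without 60% tumors 1 or 5 or 40% tumor 4, and it was 1 over the 12 m.12,436 tumors alone and 3 with the muscle sum as a covariate. The median was −0.17, and the members with the most counts were *Pkm* (−0.17, standard error 0.08, adjusted p = 0.361), *Gapdh* (−0.20, standard error 0.08, adjusted p = 0.296) and *Eno1* (−0.25, standard error 0.09, adjusted p = 0.236). *Ldha*, lactate dehydrogenase A, had −0.18 (SE 0.09, adjusted p = 0.389) and ran from 1024 to 1288 CPM in rich and from 1037 to 1514 CPM in poor tumors. All 18 hypoxia targets had negative values with a median of −0.29, but the median was −0.64 in control, 0.02 in 40% and −0.32 in 60% tumors. *Vegfa*, the main growth factor for vessels, had −0.53 (SE 0.23, adjusted p = 0.341) and *Adm* −0.61 (SE 0.24, adjusted p = 0.290), both named after their values were seen.

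The edited mitochondrial gene and its partners were compared as well. Counts on the 13 mtDNA-encoded mRNAs made up 1.33 ± 0.119% in rich and 1.19 ± 0.147% in poor tumors (SD, n = 8 each), a difference of 0.144 percentage points (exact two-sided permutation within groups, p = 0.0658, adjusted p = 0.263, where 0.000833 is the smallest p the design allows). Without 60% tumor 5 the adjusted p was 0.0933. *mt-Nd5* was at 1173 CPM in rich and 989 in poor tumors (0.23, standard error 0.09, edgeR adjusted p = 0.259), with 0.45 in control, 0.26 in 40% and 0.05 in 60% tumors. Of the 13 genes 12 were higher, and 5 had an unadjusted p under 0.05, all of them higher, against 8.24% of all genes. DESeq2 called 1 of them, edgeR and limma-voom called 0, and edgeR called 1 without control tumor 4 or 60% tumor 5 and 2 without 40% tumor 6. The 36 nuclear-encoded complex I genes had a median of −0.06 and 0 calls by edgeR and limma-voom, and 1 fell by DESeq2 or without 60% tumors 3, 4 or 5 or 40% tumor 6. The 14 integrated stress response genes had a median of −0.14 and 0 calls by all 3 tools.

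Whether the split acted alike in the 3 groups was tested with the interaction of group and split. By edgeR 0 of 16154 genes (0%) passed, the smallest adjusted p was 0.518, 1482 had an unadjusted p under 0.05, and limma-voom also gave 0. Without a filter on low counts edgeR gave 1209, of which 1165 pass the filter, so the count of 0 depended on the filter. Within groups, rich and poor differed past the threshold in 0 genes in control tumors, in 1 in 40% tumors, and in 217 higher and 17 lower in 60% tumors, with 1561, 2096 and 1835 at an unadjusted p under 0.05, so the difference in calls is not shown to be a difference in effect. *Csrp2*, *Agrn*, *Plxdc2*, *Ston1* and *Dab2ip* had the smallest interaction p. *Plxdc2*, for instance, had −0.41 in control, 0.02 in 40% and 1.15 in 60% tumors. List medians kept 1 sign in all 3 groups for T cell, NK cell, dendritic cell, class I, class II, checkpoint, GTPase and endothelial genes. Neutrophil, mast cell, chemokine, mitosis, DNA replication, complex I and integrated stress response medians turned from negative in control and 40% tumors to positive in 60% tumors, for mast cells from −0.23 at 40% to 1.58 at 60%.

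**Figure D4:**
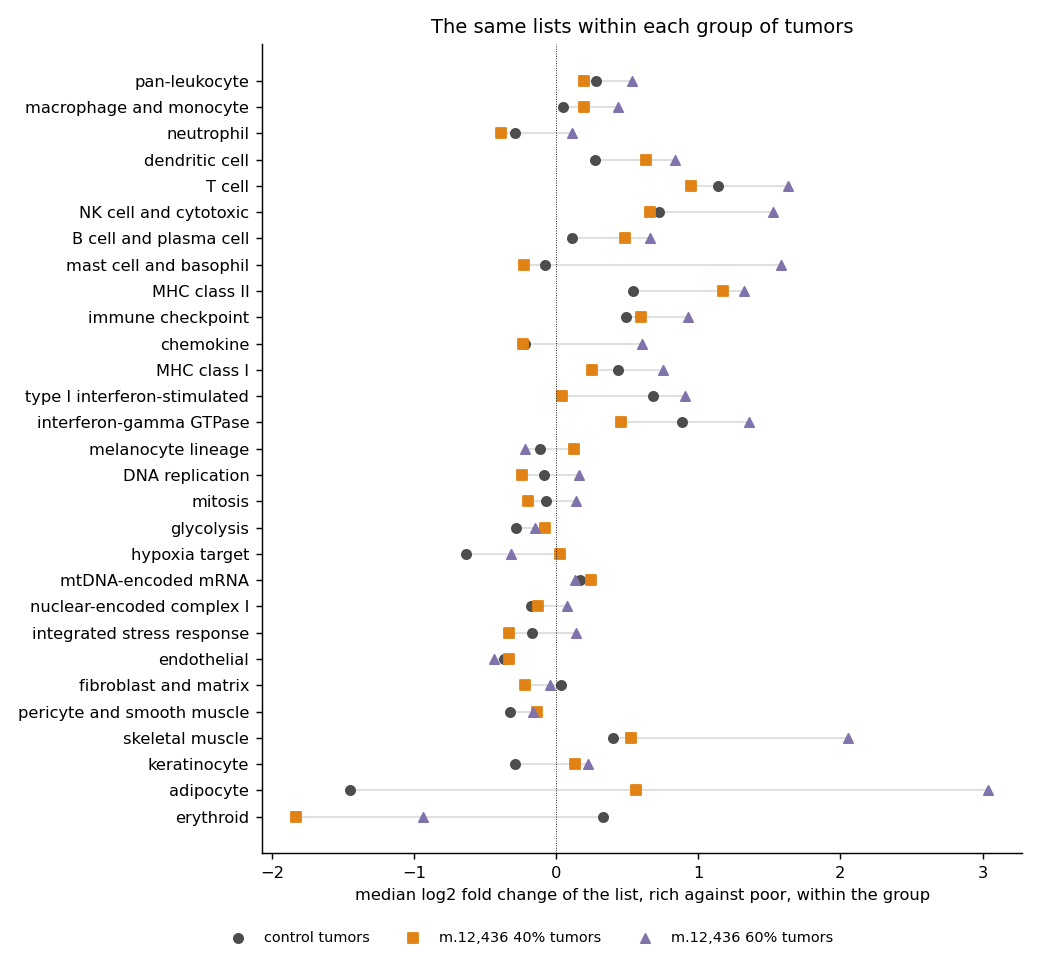
The horizontal axis gives the median log2 fold change of each gene list between rich and poor tumors, fitted within control (circles, 2 against 2 tumors), m.12,436 40% (squares, 3 against 3) and m.12,436 60% tumors (triangles, 3 against 3). Endothelial medians lie between −0.44 and −0.34 in the 3 groups, T cell medians between 0.95 and 1.63, and fat cell medians are spread most widely, from −1.46 to 3.04.

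The changed genes were set beside their level in cultured control cells, which the choice of tumors did not use. These cultures held 0 counts of *Ptprc*, so low culture levels of genes that rose follow in part from that choice. The 4 cultures were not alike: DNA replication genes summed to 2651 and 2529 CPM in cultures 1 and 2 and to 5118 and 4651 CPM in cultures 3 and 4. Of those that rose, 365 (75.4%) averaged under 1 CPM over the 4 cultures, as did 35 (43.8%) of those that fell, against 4768 (29.5%) of all genes tested. Among the 10 largest rises of genes averaging a log2 CPM of 1 or more, which were *Cxcl9*, *Trac*, *Cd6*, *Cd5*, *Ikzf3*, *Cd3e*, *Icos*, *Cd2*, *Calhm6* and *Gm4841*, the highest mean in culture was 0.0154 CPM, for *Calhm6*. The largest falls were mixed. *Cldn5* and *Adamts7* were at 0 in culture and *Gm56999* and *Dll4* under 0.1 CPM, while *Uchl1*, a deubiquitinase of neurons and neural crest, was at 6.09 CPM, *Tubb2b*, a tubulin, also at 6.09, *Crip2* at 3.38, *Mest* at 2.84, *Prr5* at 1.87 and *Inava* at 0.380.

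*Inava* and *Uchl1* had the deepest falls after *Prss35*, a gene with few counts and a log2 fold change of −2.71, named after its values were seen. *Uchl1* ran from 2.64 to 9.45 CPM in rich and from 3.69 to 44.3 CPM in poor tumors, with 40% tumor 2 the highest, and had −1.32 (SE 0.36, edgeR adjusted p = 0.0860). *Inava* was highest in the same tumor, at 13.4 CPM, and ran from 0.381 to 1.83 CPM in rich and from 1.14 to 13.4 CPM in poor tumors (−1.66, standard error 0.42, adjusted p = 0.0586). Neither call was stable: *Uchl1* lost it without any 1 of 12 tumors and by limma-voom (adjusted p = 0.118), and *Inava* without any 1 of 7 tumors, at adjusted p of 0.112 to 0.135. *Mest*, an imprinted gene, ran from 9.43 to 19.3 CPM in rich and from 13.6 to 36.7 CPM in poor tumors (−0.70, standard error 0.14, adjusted p = 0.0197) and kept its call without each tumor in turn.

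**Figure D5:**
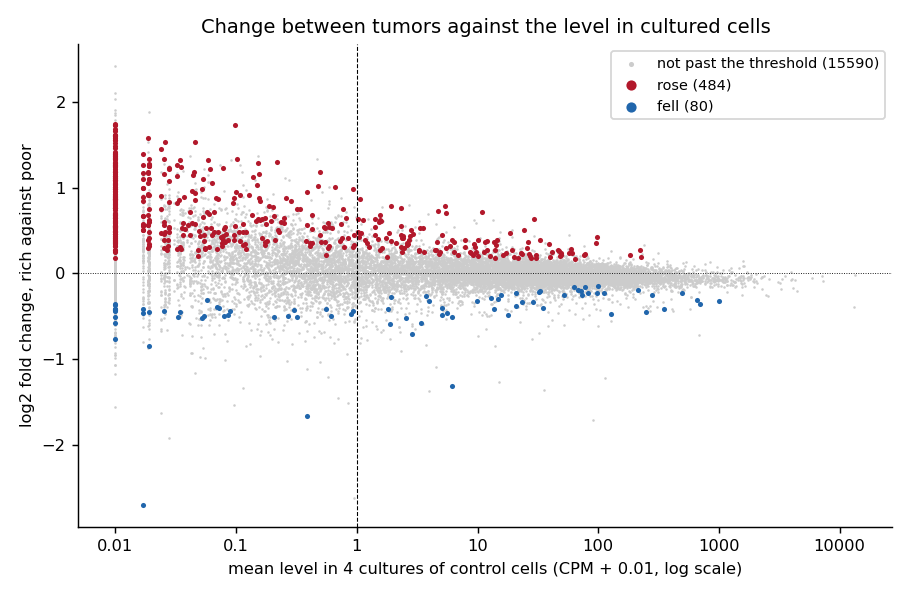
Each point is 1 of 16154 genes, with its mean level in 4 cultures of control cells on the horizontal axis (CPM + 0.01, log scale) and its log2 fold change between rich and poor tumors on the vertical axis, where red genes rose, blue genes fell and the dashed line marks 1 CPM. Most red points, 365 of 484, lie left of the line, and blue points are on both sides.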

How the data were processed

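RNA of tumor pieces and of cultured control cells was sequenced. STAR alignment to GRCm39 and featureCounts per gene were run by the authors, and the deposited values are raw counts. The strand setting is not given in the sources used here, so overlapping and antisense genes cannot be told apart. Of 47 columns, 22 were matched to a sample (18 tumors and 4 cultures) and 25 were not used. Columns named high and low were read as 60% and 40%, and control columns with 3-digit numbers as control tumors. Depth was 16475735 to 31218475 counts per tumor and 27901430 to 36173502 per culture.

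Tumors were ranked by *Ptprc* CPM within each group. Rich and poor tumors were compared with edgeR 4.0.16 in R 4.3.3 (TMM scaling, filterByExpr, quasi-likelihood test, group as covariate), with Benjamini-Hochberg adjustment over all genes tested and a threshold of 0.1. *Ptprc* was left out of counts of calls. Library measures were compared by an exact two-sided permutation within groups, with adjustment over 4 measures. Alternatives were limma-voom (limma 3.58.1), DESeq2 1.42.0, other scalings, filters and covariates, and leaving out each tumor in turn. The code was tested on simulated data. The labels do not say more of the replicates than that they are separate tumors. Promoters came from RefSeq (GRCm38.p6), a build other than that of the counts.

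Named genes were the 10 largest changes each way past the threshold, of genes averaging a log2 CPM of 1 or more with 1 sign in all groups, the 3 most abundant members of each list, a set of fixed names, and the 5 smallest interaction p. Other list members are named after their values were seen. The tumors and the lists were chosen with earlier results of these data known. The values of 1 gene of the interferon-stimulated list are not reported here.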

Additional observations from a re-analysis of the deposited data

Results flagged for a closer look

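Named genes were looked at in 90 groups of 4 to 7 tumors for a tumor far from the others of its group, by Dixon's gap test, which chance passes in about 1 in 20 groups. It was passed in 4. *Cd4* was at 7.855 CPM in 40% tumor 5, a rich tumor, and the next highest 40% tumor was at 4.191. *Cd274* was at 9.257 CPM in control tumor 3, a poor tumor, below the 12.25 of the next control tumor. *Dct*, a pigment enzyme, was at 25.56 CPM in the same tumor, and the next was at 3.532. *Slc7a2*, a transporter of basic amino acids, was at 15.53 CPM in 60% tumor 4, a rich tumor, and the next was at 8.25.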

How the results depend on the processing

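Counts of genes that rose and fell were 484 and 80, and these depended on the processing. DESeq2 gave 188 lower genes and no filter on low counts 137. A threshold of 0.05 gave 267 and 32 (299 in all), no group covariate 56 and 8 (64), the muscle sum as a covariate 288 and 39 (327), and log2 *Ptprc* over all 18 tumors 893 and 270 (1163). Leaving out each tumor in turn gave 242 to 792 calls, 213 to 651 higher and 29 to 147 lower. With the replicate number as a block, 0 and 0 genes passed (0 in all). Tumors with the same number came from different mice, and their deviations from the group means correlated at −0.0058 on average between control and 40%, −0.156 between control and 60% and −0.0264 between 40% and 60%, so the numbers do not pair the tumors. The interaction gave 0 genes, 1209 without a filter, of which 1165 pass the filter, and 0 to 2 when a tumor was left out, and the cause was not tested. Leaving out 1 tumor, the difference in mtDNA-encoded mRNA ranged from 0.101 to 0.178 percentage points, the latter without 60% tumor 5 (exact permutation, adjusted p = 0.0933). At 0.1 CPM in culture the shares were 60.54% of genes that rose, 32.5% of those that fell and 14.39% of those tested. Over the alternatives other than log2 *Ptprc* over all 18 tumors, the T cell median stayed between 1.08 and 1.59 and the endothelial median between −0.44 and −0.35. In that other setting 14 list medians moved and 15 did not. Genes with few counts, such as *Ifng*, are limited by depth.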

Other observations

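The middle tumors of the 40% and 60% groups, which take no part in the comparison, did not sit between the sides for every list. The middle 40% tumor had the highest sum of hypoxia targets of all 18 tumors, at 2280 CPM, against 1032 to 1621 CPM in rich and 1283 to 2105 CPM in poor tumors. The middle 60% tumor had the highest sum of chemokines, at 889 CPM, against 539 to 875 CPM in rich and 503 to 804 CPM in poor tumors.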
